A study of Mus musculus with 10 samples.

Results

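The 44 genes described here are the mouse collagen chain genes, chosen by symbol alone: every gene whose symbol is Col, a number, the letter a and a number, out of 32285 genes counted. They were followed through single-cell libraries of the inner ear of wild-type CBA/J mice aged 22 months, of both sexes, each library made from the pooled tissue of 7 to 8 mice. The 2 groups are the cochlea, the organ of hearing, and the vestibule, the organ of balance, with 5 libraries each, and no genetic change or treatment separates them. The sensory epithelia were dissected by hand and freed with the enzyme collagenase IV, so that connective tissue cells were recovered as well as hair cells (HCs). Replicate 2 of each organ repeated replicate 1 (see the processing), so 4 libraries an organ were counted, and no younger mice were analysed here.

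A collagen is a trimer of alpha chains, each made by its own gene. Fibrillar collagens form the rope-like fibrils of connective tissue: types I, III and V those of most stroma, types II and XI those of cartilage and of the tectorial membrane over the cochlear HCs. Fibril-associated collagens, type IX among them, sit on those fibrils. Network collagens IV and VIII form sheets, type IV in every basement membrane. Mutations in type II, IX and XI genes are known causes of Stickler syndrome and other hearing loss, and mutations in Col4a3, Col4a4 and Col4a5 of Alport syndrome, in which hearing is also lost.

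After filtering, 17696 cells were kept, 7272 from the cochlea and 10424 from the vestibule, from libraries of 1130 to 12397 barcodes and 2738036 to 26974948 unique molecular identifiers (UMIs, each standing for 1 captured transcript end). The cells fell into 61 clusters, named by marker genes that hold no collagen and called stromal-like, epithelial-like and so on, while 5 clusters stayed unnamed. C and V before a cluster number stand for cochlea and vestibule. Of the cells, 229 in the cochlea and 2004 in the vestibule were HC-like, so most of each dissection was not sensory cells. Stromal-like cells numbered 2518 and 3944, and epithelial-like cells 1740 and 2380. Endothelial and mural cells, the cells of the vessel wall, formed no cluster. The labels do not say which mice a library held, and p-values measure only the spread between these libraries, part of which may be technical.

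The 44 genes gave 35985 of 67446164 UMIs (0.0534%). Expression was concentrated in few of them: 9 genes with more than 1000 UMIs held 71.3% of all collagen UMIs, and 8 genes had fewer than 50. The fibrillar group of 11 genes gave 42.8% of collagen UMIs, the 9 fibril-associated genes 21.8%, the 3 network genes 13.1%, and the 6 basement membrane genes 8.38%. The 4 transmembrane genes gave 6.6%, the 2 multiplexins 4.95% and the 6 genes of the beaded filament, type VI, 1.75%. The scale used throughout is CPM, the UMIs of a chain in every 1000000 UMIs of the class in a library. Only the transcript's end is counted, so CPM does not rise with transcript length, but chains may be captured with unequal efficiency.

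Stromal-like cells carried the largest collagen share among the classes with 4 libraries an organ. In cochlear stroma the share of UMIs that were collagen was 0.1084%, 0.1133%, 0.08061% and 0.09796% in replicates 1, 3, 4 and 5. In vestibular stroma it was 0.1186%, 0.1157%, 0.1101% and 0.1109%, and the organs overlapped. Epithelial-like cells held 0.04314% ± 0.006504 in the cochlea and 0.07784% ± 0.0226 in the vestibule (SD, n = 4 each). HC-like cells held 0.009096% ± 0.00259 and 0.01284% ± 0.001416, beside 0.01254% ± 0.004915 and 0.01618% ± 0.0124 in macrophage-like cells. The macrophage share is no plain background. In the cochlea Col14a1 alone gave 67.83 CPM ± 56.75 of it. In the vestibule replicate 1, with 11 cells, held 0.03416%, and the other replicates 0.005731% to 0.01281%. With cells holding 3 or more markers of another class left out the cochlear HC share was 0.00367%, and with clusters of mixed markers kept the vestibular one was 0.0269%. The order stroma, epithelium, HC therefore held in every library, while HCs and macrophages overlapped. These levels between classes are descriptions without a test.

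**Figure D1:**
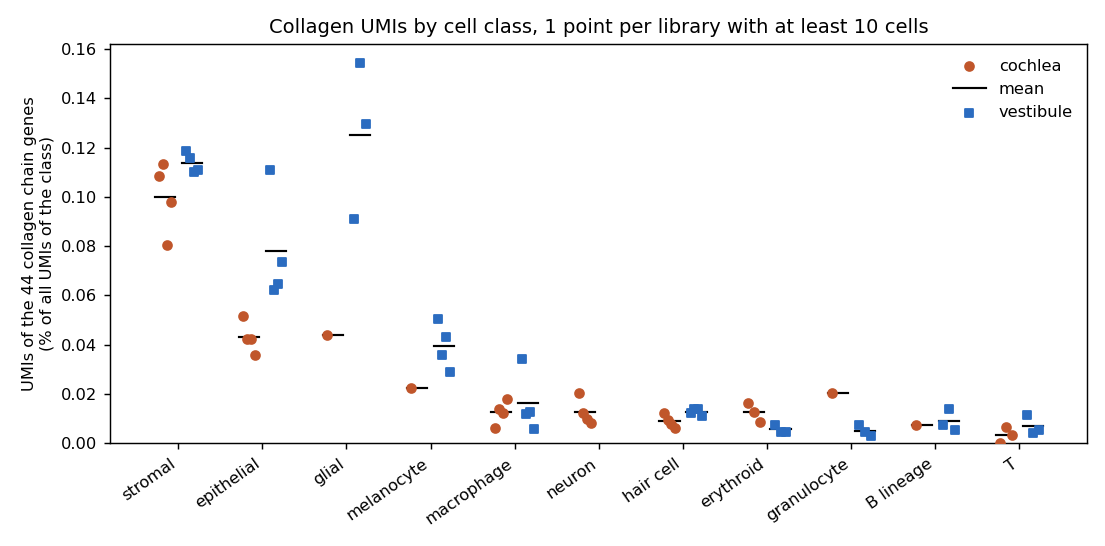
Share of UMIs that came from the 44 collagen chain genes (percent, y axis) in each cell class (x axis); each point is 1 library with at least 10 cells of the class, coloured by organ. Stromal-like cells sit near 0.1% in both organs, epithelial-like cells below them, and hair cell-like and macrophage-like cells near 0.01%.

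Among the fibrillar chains of general connective tissue, Col1a2 (GRCm38, chr6:4504814-4541544), a chain of type I collagen, was a stromal gene: 89.24% of its 3429 UMIs came from stromal-like cells. Its level in cochlear stroma was 161.8, 201.5, 131.2 and 144.6 CPM, and in vestibular stroma 162, 152.6, 132.6 and 145.5 CPM. The ranges overlapped, and the level was 1.08 CPM in cochlear and 4.04 CPM in vestibular macrophages. It was highest in the barrier-type clusters led by Slc47a1, a drug exporter, with 633.3 CPM in V27 (Poisson 95% interval 546.7 to 729.8) and 508.7 CPM in C14 (450.6 to 572.3). V27 was uneven across libraries, at 257.4, 814.3, 219.1 and 1039 CPM, and C14 was almost confined to replicate 3, which held 170 of its 180 cells. The third cochlear source was C0, led by the chemokine Ccl11, with 324.5 CPM.

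Col1a1, the chain that pairs with Col1a2 in type I collagen, was scarce. It gave 165 UMIs, so that Col1a2 had 20.8 times as many, and across the 61 clusters the pair had a Spearman correlation of 0.0897. Col1a2 was the higher in 54 clusters and Col1a1 in 4. The level of Col1a1 was highest in V27, at 202.3 CPM, where 36.97% of its UMIs lay. Col3a1, the chain of type III collagen, followed Col1a2 more closely, with a Spearman correlation of 0.6408 and its highest level, 262 CPM, in the same cluster. Among type V chains, which set fibril width, Col5a2 was highest in V27 at 169.1 CPM, while Col5a3 lay mostly in melanocyte-like cells, with 108.6 CPM in C18 and 148.1, 74.9, 36.9 and 62.1 CPM in the 4 libraries of V19. Col5a1 had 66.67% of its UMIs in stroma, and its highest cluster level was 37.86 CPM in the dividing erythroid-like cluster C29, from 18 UMIs in 9.804% of its cells. Correlations across clusters are descriptions, since clusters share libraries and depth.

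The cartilage-type fibrillar chains had a wider reach. Of the 3862 UMIs of Col11a1 (chr3:114030540-114220718), a chain of type XI collagen, 34% came from epithelial-like cells, 38.48% from unnamed clusters and 15.2% from stroma. The unnamed V13, whose cells carried markers of both HCs and epithelium, held 20.51% alone. Vestibular epithelial-like cells had Col11a1 at 196.5 CPM ± 82.42 and vestibular stroma at 31.75 CPM ± 6.545. In the cochlea the 2 classes overlapped, at 29.77 CPM ± 6.514 and 28.85 CPM ± 10.83. The highest level of Col11a1 was in the vestibular supporting cell-type clusters that share Otog, a gene of the membranes over the HCs. In V30 it was 1157, 310.8, 440.8 and 870.6 CPM, and in V6 429.1, 218.2, 269.2 and 415.4 CPM. In the cochlea the highest values were in the Epyc- and Ceacam16-bearing clusters C3 at 216 CPM and C7 at 160.9 CPM, both unnamed, and Ceacam16 is a known tectorial membrane gene. Epcam, an epithelial adhesion gene, had a UMI in 69.5% of C3 cells and 87.6% of C7 cells.

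Col11a2, the second type XI chain, had its highest cluster level in vestibular stroma instead, at 172.8, 205, 151.2 and 169.7 CPM in V0. That cluster was led by Ranbp3l and also held Coch, a fibrocyte gene. In the cochlea the order of the classes was the other way. There Col11a2 was 61.97 CPM ± 10.64 in epithelial-like and 28.59 CPM ± 13.66 in stromal-like cells, without overlap of libraries. Over all clusters Col11a1 and Col11a2 had a Spearman correlation of 0.594, with Col11a1 the higher in 27 clusters and Col11a2 in 32. Col27a1, a fibrillar chain of cartilage, was also highest in V0, at 175.4 CPM (157.5 to 194.7). Col2a1, the chain of type II collagen, gave only 578 UMIs, 72.32% of them in stroma, and its highest level was 103 CPM in C6, a cluster led by Dmp1. It correlated with Col11a1 at 0.352, and Col11a1 was the higher in 49 of the 61 clusters.

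The fibril-associated chains were led by type IX, which coats type II fibrils. Col9a2, 1 of its 3 chains, had 3706 UMIs, 53.48% of them stromal, and its highest level was in V0 at 414.6, 277.5, 300.8 and 274.2 CPM. Col9a3 was highest in V3 at 90.01 CPM, and Col9a1 in the epithelial-like V16 at 77.15 CPM. The correlations within the trimer were 0.603 for Col9a1 and Col9a2, 0.674 for Col9a1 and Col9a3, and 0.464 for Col9a2 and Col9a3. Col12a1 was highest in the Slc47a1-led C14 at 286.5 CPM, a pooled value from a cluster almost confined to cochlea replicate 3. Over all cochlear stroma it was 22.75, 28.45, 0 and 2.45 CPM in replicates 1, 3, 4 and 5.

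The other fibril-associated chains marked scattered cells. Col14a1 was high in the Nox3-bearing epithelial-like cluster V2, where the libraries gave 119.1, 104.4, 79.1 and 68.8 CPM, and in glial V29 at 151.3 CPM. It was also high in macrophages, at 11.8, 59.4, 256.7 and 160.6 CPM in cluster C4, so that macrophages are no background for this gene. Col19a1 gave 63 UMIs, and 88.89% of them came from the neuron-like cluster C11, at 34.3, 20, 29.6 and 12.8 CPM. Col22a1 gave 32 UMIs, 40.62% of them from the epithelial-like V24, at 0, 19, 62 and 89.6 CPM. That cluster carried Kcne1, a potassium channel gene of endolymph-secreting cells.

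The network chain Col8a1 (chr16:57624258-57754737), of type VIII collagen, had the most UMIs of all 44, at 4326. It was highest in C5, an epithelial-like cluster led by Ttr and Vmo1, at 1336, 857, 751.8 and 703.9 CPM. The vestibular cluster with the same leading genes, V25, gave 218, 148.2, 246.4 and 189.7 CPM, and no library of one reached those of the other. In the stromal C6 the libraries gave 867.5, 497.2, 235.5 and 469.7 CPM. The level of its partner Col8a2 was lower in 48 of the 61 clusters and correlated with it at 0.649.

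**Figure D2:**
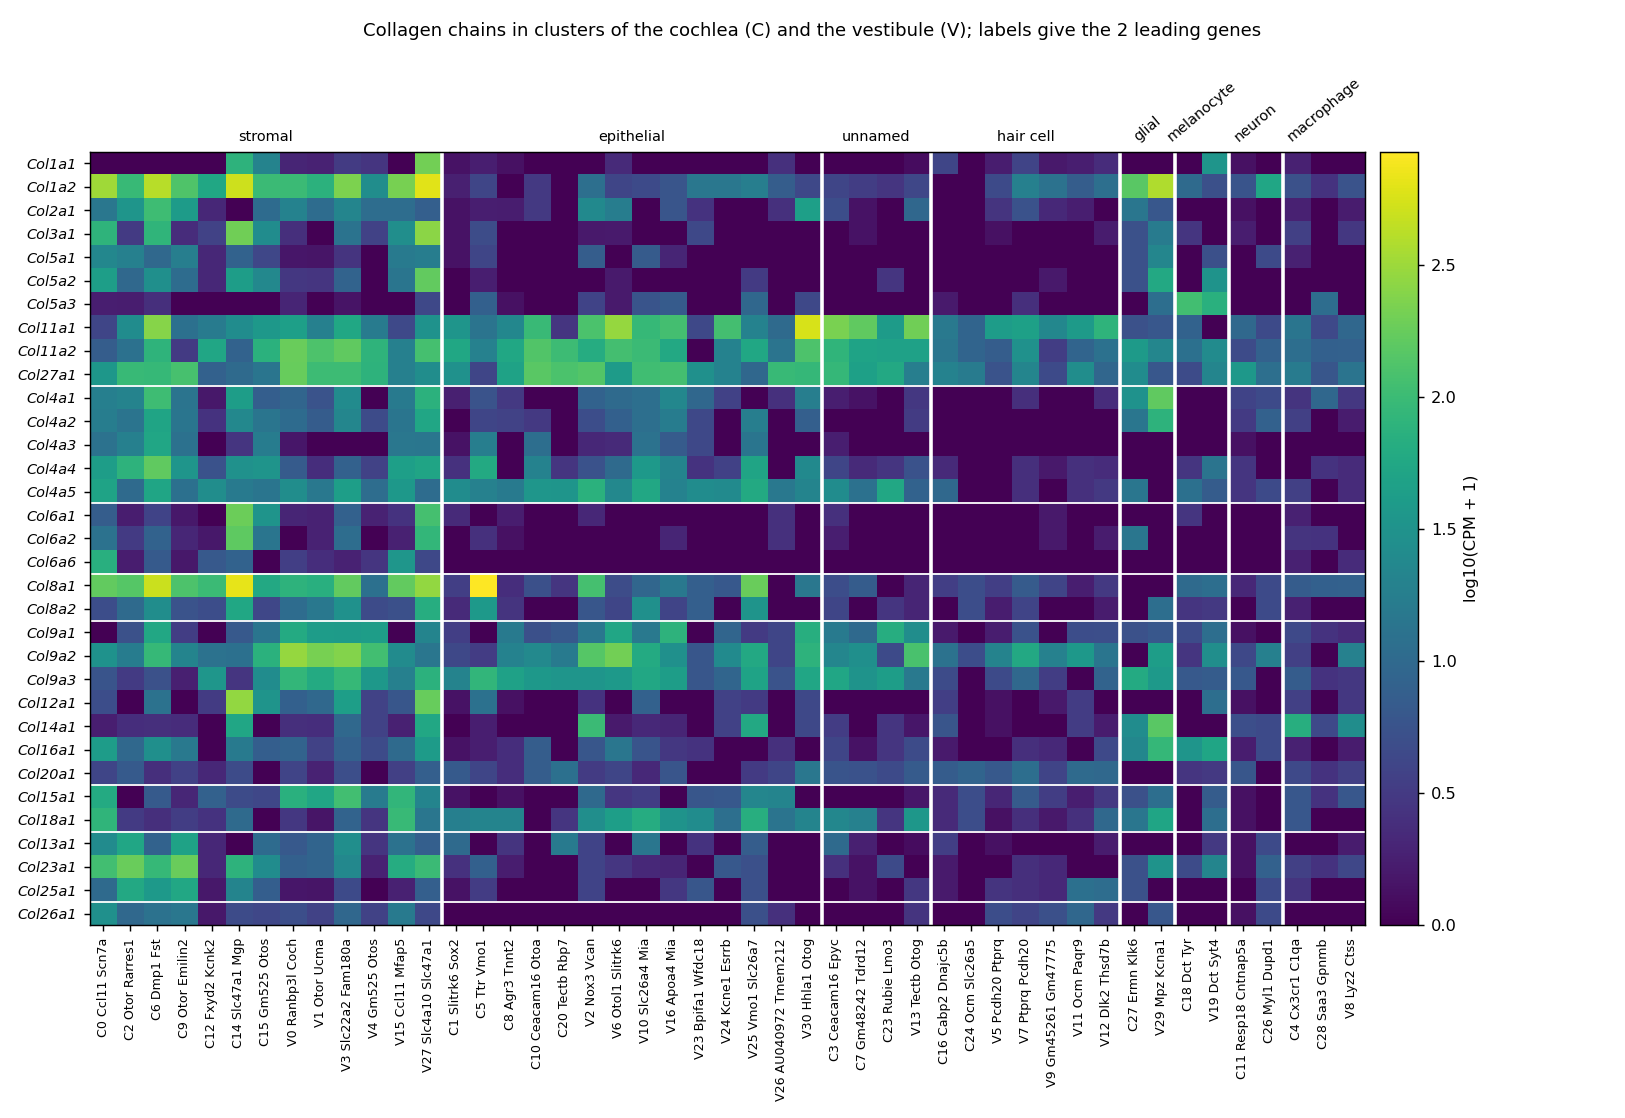
Level of the more abundant collagen chain genes (rows, by structural group) in clusters (columns, by class), as log10(CPM + 1) over the cells of 4 libraries. The scarcest chains, Col6a3 among them, are not drawn. The unnamed C13 and the granulocyte, B lineage, T and erythroid clusters are also left out. Col8a1 is brightest in C5, Col11a1 in V30 and Col9a2 in V0, while Col6a1 and Col6a2 are seen mainly in C14 and V27 and Col6a6 in C0. C14 was almost confined to cochlea replicate 3.

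Type IV collagen of basement membranes is made by 6 genes that lie in 3 head-to-head pairs. Coordinates are those of GRCm38. Col4a1 (chr8:11198423-11312826, minus strand) and Col4a2 (chr8:11312805-11449287, plus strand) overlapped by 22 bases, Col4a4 and Col4a3 on chromosome 1 were 71 bases apart, and Col4a6 and Col4a5 on the X chromosome 1308 bases apart. Within each pair the levels rose and fell together over the 61 clusters, with Spearman correlations of 0.745, 0.713 and 0.569 in that order. Pairs of partner chains outside type IV ranged from 0.0897 for Col1a1 and Col1a2 to 0.674 for Col9a1 and Col9a3, so such values were not particular to head-to-head genes. The stretch between the first pair is shown because the start windows of both genes share it. The line below gives the 300 bases from 250 before to 50 after the start of Col4a2 (RefSeq, GRCm38.p6, chr8:11312555-11312854, plus strand), and the 78 capital letters are the bases that also lie in the same window of Col4a1, whose start is 21 bases away on the other strand.

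Col4a2: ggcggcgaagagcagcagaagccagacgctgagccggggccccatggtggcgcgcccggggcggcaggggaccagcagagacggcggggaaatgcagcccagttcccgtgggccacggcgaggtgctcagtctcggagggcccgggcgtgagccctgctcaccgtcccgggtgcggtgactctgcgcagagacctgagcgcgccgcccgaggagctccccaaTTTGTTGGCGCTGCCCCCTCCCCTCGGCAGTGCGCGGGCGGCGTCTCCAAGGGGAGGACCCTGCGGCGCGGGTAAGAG

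The pairs were not used alike. Col4a1 and Col4a2 were highest in the Schwann-type glial cluster V29, at 161.7 and 78.25 CPM, and Col4a2 gave no UMI in HC-like cells. Col4a4 was highest in the Dmp1-led stroma C6, at 216.9, 158.7, 149.9 and 171.8 CPM, and Col4a3 in the same cluster at 92.9, 49.7, 42.8 and 68.7 CPM. Col4a4 had 3.825 times the UMIs of Col4a3. Col4a5, with 1093 UMIs, was spread over stroma (41.17%) and epithelium (42.36%) and highest in V2 at 73.25 CPM. Col4a6 gave 82 UMIs and reached 12.67 CPM at most, in V25.

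**Figure D3:**
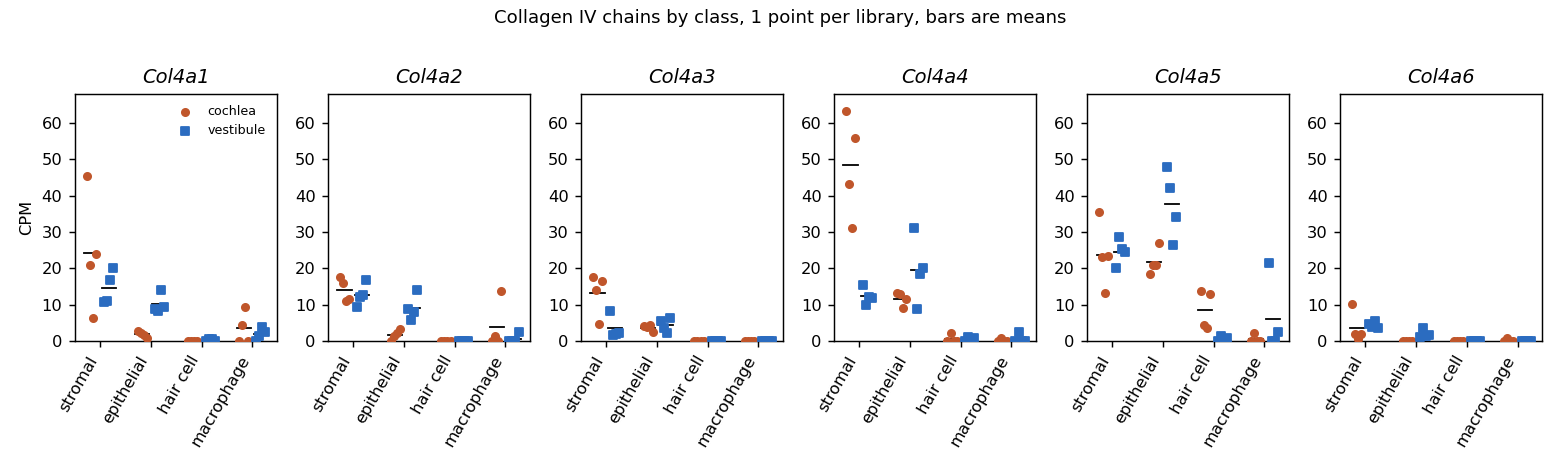
Level of the 6 type IV collagen chains (CPM, y axis) in stromal-like, epithelial-like, hair cell-like and macrophage-like cells of each organ, 1 point per library. Col4a3 and Col4a4 stand higher in cochlear than in vestibular stroma, while Col4a1 is higher in vestibular than in cochlear epithelium.

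Multiplexins carry endostatin-type ends that are cut free. Col18a1 was highest in Ccl11-led stroma, at 93.27 CPM in V15 and 81.53 CPM in C0, but 42.32% of its UMIs were epithelial. Col15a1 was 84.95% stromal and highest in V3, a cluster that carried Lum, at 71.2, 125.1, 94.9 and 108.9 CPM. Transmembrane collagens stay anchored in the cell surface, and 3 of the 4 were stromal. Col23a1 had 94.65% of its UMIs in stroma and reached 164.5, 177.7, 207.8 and 156.9 CPM in C9, a cluster led by the secreted gene Otor. Col25a1 and Col13a1 were highest in C2, also Otor-led, at 57.63 and 53.31 CPM. Col17a1, the hemidesmosome collagen of skin, gave 1 UMI.

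Type VI collagen, which forms beaded filaments around cells, was narrow in reach. Of the UMIs of Col6a1, 50.76% lay in C14, at 183.6 CPM, and of those of Col6a2 45.79%, at 159.8 CPM. These are pooled values, and C14 was almost confined to cochlea replicate 3. Over all cochlear stroma Col6a1 was 15.17, 19.08, 0 and 1.838 CPM in replicates 1, 3, 4 and 5. Col6a6 instead lay in the Ccl11-led C0, at 36.3, 68.6, 38.2 and 86.4 CPM, with 52.66% of its 169 UMIs. Col6a3, Col6a4 and Col6a5 gave 42, 17 and 14 UMIs. Col10a1, the chain of hypertrophic cartilage, gave 8 UMIs, Col28a1 gave 1, and Col7a1, the anchoring fibril chain, 36. Col26a1 gave 213 UMIs, 77.46% of them stromal, with its highest level, 28.22 CPM, in C0, and Col24a1 gave 51. Col26a1 and Col24a1 also overlap same-strand non-coding genes, whose reads could be split with theirs.

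HC-like cells held little collagen RNA. Col11a1 led in the vestibule, at 38.8, 39.2, 54.5 and 47.5 CPM, against a mean of 10.6 CPM in macrophages of that organ. With each cell thinned to 1000 UMIs, 4.641% of vestibular HCs had a Col11a1 UMI (exact binomial interval 3.762 to 5.655) and 1.412% of vestibular macrophages (0.4602 to 3.265). Without thinning the shares were 13.62% and 3.107%, at median depths of 3794.5 and 2671.5 UMIs. Among the vestibular HC clusters Col11a1 ranged from 21.96 CPM in V9, where the libraries gave 16.5, 12.7, 35.7 and 31.5, to 79.45 CPM in V12, where they gave 48.4, 81.5, 90.4 and 81.5. V12 carried Calb2 and V9 Tmc2, an HC transduction channel gene. The 2 clusters were picked as the lowest and the highest on this level, so the gap between their libraries is a description only.

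Col9a2 was 27.9, 25.2, 26.9 and 14.2 CPM in vestibular HCs and 85.4, 19.45, 11.3 and 12.46 CPM in vestibular macrophages. The first macrophage value rests on 4 UMIs in 11 cells, and in the other replicates the HC value was the higher. Col27a1 was 8.26 CPM in the HCs and 14.0 CPM in the macrophages. Col20a1, which overlaps a non-coding gene on the same strand, was 20.6, 4.44, 7.78 and 3.54 CPM in vestibular and 7.36 CPM ± 2.51 in cochlear HCs, against 1.85 CPM ± 2.14 and 3.07 CPM ± 4.43 in macrophages. In cochlear HCs Col11a1 was 22.1, 13.3, 13.7 and 3.2 CPM, against 5.545, 11.56, 0 and 0 CPM in cochlear macrophages, with overlap. The thinned shares with Col11a1, each from few cells, were 0.8734% and 0.8989% (macrophage interval 0.2454 to 2.285). Neither Col1a2 nor any type VI chain gave a UMI in the 229 cochlear HCs. Intervals and floors here cover counting error only. A count of 0 in 229 cells allows a share of cells with a UMI of up to 1.31%, taking 3 cells as the floor.

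Glial-like cells differed between organs in kind, since the cochlear C27 was led by oligodendrocyte-type genes such as Mog and the vestibular V29 by Schwann-type genes. V29 was rich in collagen, with 0.125% ± 0.03192 of UMIs (n = 3 libraries with at least 10 cells). Col1a2 there was 239.4, 540 and 405.6 CPM in replicates 3, 4 and 5. Col4a1 was 169 CPM ± 93, Col14a1 135.5 CPM ± 62.7, and Col16a1 105.2 CPM ± 37.2. The cochlear cluster had 1 library with enough cells, in which Col1a2 was 137.8 CPM. No organ test was possible in this class.

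Melanocyte-like cells of the vestibule had Col16a1 at 81.54 CPM ± 83.88, with 207.3 CPM in replicate 1 and 36.89 to 41.38 CPM in the others. Neuron-like cells, found in the cochlea, had Col27a1 at 32.7 CPM ± 13.3 and Col19a1 at 22.4 CPM ± 9.08. Vessel cells could only be picked out one by one. At least 4 of 8 endothelial markers were detected in 29 cells and at least 4 of 8 mural markers in 7, mostly inside stromal clusters. In the 7 mural-marker cells Col4a1 was 381.2 CPM (11 UMIs, Poisson interval 190.3 to 682) and Col4a2 207.9 CPM (6 UMIs, 76.3 to 452.5). In the 29 endothelial-marker cells Col4a1 was 49.19 CPM (30.45 to 75.19), but Col1a2, at 168.6 CPM, and Col23a1, at 154.6 CPM, were higher, and most of these cells lay in stromal clusters.

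Levels in the organs were then compared within stroma, where 41 of the 44 chains gave a UMI and 28 passed the filter on low counts. With edgeR's quasi-likelihood test and Benjamini-Hochberg adjustment over 10373 genes, 15 chains differed, 8 higher in the cochlea and 7 higher in the vestibule, against 17.9% of all genes tested (9.21% and 8.71% by direction). For 11 chains no cochlear library overlapped a vestibular one, as against 24.5% of genes. The median size of the difference was 0.801 on the log2 scale over the 28 chains and 0.277 over all genes. The organs were clustered apart, so different clusters made up the stroma of each, and a shift in cell makeup and a shift within cells cannot be told apart. Without normalisation factors the median gene moved by 0.251 toward the cochlea, and 9 chains were then higher in the cochlea and 5 in the vestibule. With that setting 2371 of all 10373 genes were called, 1757 of them higher in the cochlea.

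All 3 type IX chains and Col11a2, 1 of the 2 type XI chains, were higher in vestibular stroma. Col9a2 was 12.6, 26.8, 25.9 and 22.1 CPM in the cochlea and 194.9, 196.3, 220.3 and 145.5 CPM in the vestibule (log2 difference, cochlea minus vestibule, -3.23, SE 0.219, adjusted p = 4.82e-08). Col9a3 was 15.2, 8.2, 10.9 and 6.74 against 55.2, 62.9, 80.2 and 61.3 CPM, and Col9a1 17.7, 6.03, 2.3 and 8.58 against 34.1, 41.2, 39.8 and 35.5 CPM (log2 differences -3.09 and -2.79, adjusted p = 1.4e-07 and 5.52e-06). For each gene of the trimer the organs did not overlap. Col11a2 was 48.03, 18.58, 19.56 and 28.18 against 158.5, 144.5, 105.4 and 91.88 CPM (log2 difference -2.585, SE 0.252, adjusted p = 1.75e-06). Col15a1 was 12.6, 10.9, 4.6 and 14.1 against 66.9, 71.6, 62.5 and 75.9 CPM (-2.99, adjusted p = 2.71e-07). Smaller differences, with overlapping libraries, were found for Col8a2 (-1.13, adjusted p = 0.0262) and Col27a1 (-0.71, adjusted p = 0.0331).

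The windows around the RefSeq starts of Col9a2 and Col11a2 are shown because these 2 chains of different trimers had the highest levels among those higher in vestibular stroma (GRCm38.p6, plus strand, chr4:121039316-121039615 and chr17:34038888-34039187). Capitals mark GGGCGG on either strand, the core of a GC box, and in Col11a2 also TATAAA, the core of a TATA box.

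Col9a2: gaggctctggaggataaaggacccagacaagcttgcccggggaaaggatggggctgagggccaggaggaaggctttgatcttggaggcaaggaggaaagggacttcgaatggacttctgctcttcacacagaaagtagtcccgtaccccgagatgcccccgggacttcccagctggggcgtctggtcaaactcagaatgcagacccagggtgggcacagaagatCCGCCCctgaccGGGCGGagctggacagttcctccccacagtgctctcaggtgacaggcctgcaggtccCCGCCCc

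Col11a2: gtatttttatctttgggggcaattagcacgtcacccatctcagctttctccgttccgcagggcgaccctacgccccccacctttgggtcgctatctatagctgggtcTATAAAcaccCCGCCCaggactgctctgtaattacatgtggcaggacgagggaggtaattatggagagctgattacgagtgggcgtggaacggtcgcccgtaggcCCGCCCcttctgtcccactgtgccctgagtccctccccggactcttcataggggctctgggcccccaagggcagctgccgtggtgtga

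The Col9a2 window held 3 copies of GGGCGG and the Col11a2 window 2, with 1 TATAAA. The start of Col11a2 that RefSeq gives lies before the one in GENCODE (34039437) and that of Col9a2 after it (121039385), so these windows may not cover the start used in the ear. Of the 44 genes, 35 had a window. GGGCGG was found in 22 of these 35 and in 35.7% of all 32851 windows, CCAAT in 13 and 37.4%, TATAAA in 5 and 13.6%, and ACAAAG, the core read by SOX proteins, in 5 and 18.7%, each on both strands and none contained in another. A match is a run of letters only.

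Higher in cochlear stroma were 3 of the 4 transmembrane collagens and a type IV pair. The other, Col17a1, was not tested. Col25a1, known as a brain collagen, was 22.8, 37.15, 32.2 and 34.3 CPM in the cochlea and 0, 1.49, 3.03 and 0 in the vestibule (log2 difference 4.23, SE 0.416, adjusted p = 1.93e-06). Col23a1 was 93.5, 115.8, 154.2 and 120.1 against 37.6, 14.7, 24.7 and 26.5 CPM (2.12, adjusted p = 1.04e-05), and Col13a1 was also higher in the cochlea (1.17, adjusted p = 0.00046). Together the 4 transmembrane chains gave 184.8 CPM ± 26.6 in cochlear and 38.2 CPM ± 7.39 in vestibular stroma. Of type IV, Col4a4 was 63.2, 43.2, 31.1 and 55.8 against 15.3, 9.99, 12.1 and 11.8 CPM (1.71, adjusted p = 3.96e-05), and its partner Col4a3 17.7, 13.9, 4.6 and 16.5 against 8.22, 1.49, 2.02 and 2.09 CPM (2.06, adjusted p = 0.00552), with overlap. Without vestibule replicate 3 the adjusted p of Col4a3 was 0.0654.

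Col5a1 (log2 difference 1.82, adjusted p = 0.00293), Col2a1 (0.78, adjusted p = 0.0241) and Col16a1 (0.82, adjusted p = 0.0363) were the other chains higher in cochlear stroma. The abundant stromal chains did not pass the test. Col1a2 differed by -0.13 (adjusted p = 0.705), Col8a1 by 0.38 (0.232), and Col11a1 by -0.35 (0.441). Col4a1 (0.24, adjusted p = 0.757) and Col4a2 (-0.15, 0.864), the other type IV pair, did not either. Of the 15 calls, 10 were kept in every alternative that tested them, and Col16a1, Col27a1, Col2a1, Col4a3 and Col8a2 were lost in at least 1. A single library was enough: Col16a1 lost its call without any library but cochlea 1 and vestibule 4 (adjusted p from 0.0566 to 0.106), Col2a1 without any but cochlea 1 and vestibule 5 (0.0516 to 0.0729), Col27a1 without cochlea 3 or 5 or vestibule 3 or 4 (0.0792 to 0.12), and Col8a2 without cochlea 4 or 5 or vestibule 1 or 3 (0.0636 to 0.131).

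**Figure D4:**
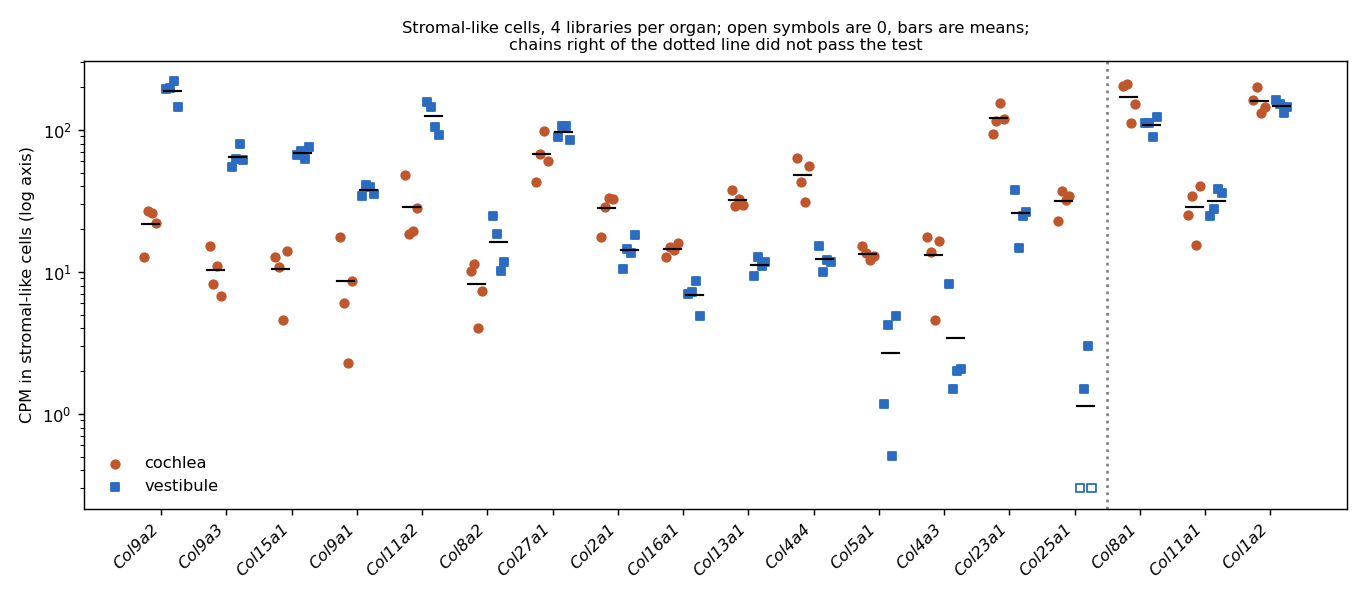
Level (CPM, log axis) of the 15 chains that differed between organs in stromal-like cells, and of Col8a1, Col11a1 and Col1a2, which did not; each point is 1 library. Col9a2, Col9a3, Col15a1 and Col11a2 separate fully toward the vestibule, and Col25a1, Col23a1 and Col4a4 toward the cochlea.

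Stromal clusters with like leading genes were set side by side, as a description. In the Otor-led clusters Col9a2 was 15.8 CPM in C2 and 19.8 in C9 but 212.7 in V1, and Col11a2 11.5 and 2.1 but 129.6. In the same clusters Col23a1 was 183 CPM in C2 and 183 in C9 but 7.9 in V1, and Col25a1 57.6 and 56.6 but 0.5. In the clusters led by Gm525 and Otos the gap was smaller for these chains: Col9a2 was 73.7 CPM in C15 and 108.4 in V4, and Col11a2 73.7 and 79.0. In the Slc47a1-led pair, Col11a2 was 7.3 CPM in C14 and 116.1 in V27, while Col8a1 was 661.1 and 285.2. Of this pair, C14 was almost confined to cochlea replicate 3.

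Marker lists of other classes also moved with organ in stroma, and their part in these results was not tested. The 8 endothelial markers summed to 1400 to 1799 CPM in cochlear and 86.05 to 177.5 CPM in vestibular stroma, with all 8 detected in both, and Emcn alone gave 89.89% of that sum in the cochlea. The 8 mural markers summed to 154.2 to 261.1 and 81.01 to 155.9 CPM. The 14 epithelial markers summed to 112.8 to 240.2 and 75.12 to 150.6 CPM, with Oc90 at 0 in both organs and Nox3 at 0 in the cochlea. Of the 8 bone and cartilage markers, whose tissue is known for Col2a1, Col9a1 and Col11a2, 6 and 7 were detected and summed to 56.39 to 161.8 and 22.1 to 34.8 CPM.

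In epithelial-like cells 40 chains gave a UMI and 14 were tested among 9866 genes. Of these 14, 9 differed, 8 higher in the vestibule and 1 in the cochlea, against 23.9% of all genes (13.2% and 10.8% by direction), and the libraries of 8 did not overlap, against 25.3% of genes. The median size of the difference was 1.27 on the log2 scale, as against 0.343 for all genes. Col11a1 was 37.1, 24, 33.5 and 24.6 CPM in the cochlea and 294.8, 99.2, 171 and 220.9 CPM in the vestibule (log2 difference -2.61, SE 0.283, adjusted p = 9.55e-06). With the unnamed cochlear clusters that held Epcam counted as epithelium, its cochlear level was 74.0 CPM and the difference -1.2 (adjusted p = 0.00804).

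Col14a1 had 1 UMI in all cochlear epithelial-like cells (0, 0.2307, 0 and 0 CPM) and 17.8, 30.9, 18.4 and 29.4 CPM in the vestibule (log2 difference -6.87, adjusted p = 7.29e-07, a fit that depends on the prior count). Col2a1 was 0, 0.923, 0.744 and 0 against 22.3, 10.7, 8.81 and 9.27 CPM (-3.99, adjusted p = 7.69e-05). Col9a2 (-2.88, adjusted p = 1.99e-05) and Col9a1 (-2.08, 0.00146) were higher in the vestibule, as they were in stroma, and so was Col4a1 (-2.28, 0.000623). Col18a1 (-0.90, adjusted p = 0.0098) and Col4a5 (-0.66, 0.0436) showed smaller differences. Without cochlea replicate 3 the adjusted p of Col18a1 was 0.0507, and that of Col4a5 lay between 0.0596 and 0.14 without any library but cochlea 5 and vestibule 4.

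Col8a1 was the exception, at 135, 176, 101.1 and 100.7 CPM in cochlear and 41.2, 42.2, 32.3 and 71.1 CPM in vestibular epithelium (log2 difference 1.63, adjusted p = 0.000312). Most of that came from the Ttr-led C5. Col27a1 (-0.58, adjusted p = 0.0708), Col9a3 (0.51, 0.158), Col4a4 (-0.45, 0.407), Col11a2 (-0.15, 0.767) and Col8a2 (0.05, 0.95) did not pass. The 16 stromal markers summed to 561.5 to 917.9 CPM in cochlear and 1634 to 4007 CPM in vestibular epithelial-like cells, all 16 detected in both, with Lum leading in the cochlea and Coch in the vestibule. Their part in the higher vestibular levels was not tested. In cells with fewer than 3 markers of another class, 10 chains could be tested, and 4 were higher in the vestibule, Col11a1, Col9a2, Col9a1 and Col18a1, where 8 of 14 had been. Of all genes 1797 of 8493 were then called, 828 of them higher in the cochlea.

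In HC-like cells only 2 of the 34 chains detected could be tested. Col11a1 was 22.1, 13.3, 13.7 and 3.2 CPM in cochlear and 38.8, 39.2, 54.5 and 47.5 CPM in vestibular HCs, without overlap (log2 difference -1.70, SE 0.323, adjusted p = 0.000449), where 36.0% of 8932 genes differed, 19.2% toward the vestibule. Col9a2 was 2.76, 16.6, 0 and 12.8 against 27.9, 25.2, 26.9 and 14.2 CPM (-1.14, adjusted p = 0.0617). With cells holding 3 or more markers of another class left out, the Col11a1 difference was -4.63. Marker lists moved here too: the 14 epithelial markers summed to 711 to 1514 CPM in cochlear and 283.4 to 494.2 CPM in vestibular HCs, the 16 stromal markers to 96.09 to 685.4 and 586.2 to 2807 CPM.

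The organ difference was then compared between stroma and epithelium in 1 model with a term for each library. Of 29 chains tested, 16 had an organ difference that differed between the classes, against 27.3% of 11428 genes. Of these 16 chains, 12 lay toward the cochlea in stroma relative to epithelium and 4 toward the vestibule. Over all genes 3121 were called, 1722 of them toward the cochlea in stroma. Low counts limit this result, since only 14 chains had passed the filter in epithelium alone. Among the 16, Col25a1, Col16a1, Col1a2, Col5a1, Col4a2, Col23a1 and Col4a3 had not passed there, and Col14a1 had not passed in stroma. Chains of type IX were split by this test. Col9a3, and with it Col11a2, had a more vestibular difference in stroma than in epithelium (interaction -3.52 and -2.54 on the log2 scale, adjusted p = 1.97e-07 and 3.02e-06). For Col9a2 (-0.24, SE 0.388, adjusted p = 0.713) and Col9a1 (-0.76, SE 0.517, 0.309) the test was not passed. Col2a1 was higher in cochlear stroma but in vestibular epithelium (4.71, adjusted p = 1.19e-05).

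Col11a1 differed between organs in epithelium more than in stroma (interaction 2.12, adjusted p = 0.000359), though with the Epcam-bearing unnamed clusters added the value was 0.655 (adjusted p = 0.234). Col4a1 and Col4a2 (2.63 and 1.95, adjusted p = 0.000296 and 0.0126) and Col4a3 and Col4a4 (1.99 for each, 0.0267 and 0.000164) lay on the same side. Without cochlea replicate 3 the adjusted p was 0.124 for Col4a2, and for Col4a3 it was 0.0621 to 0.148 without replicate 3 or 5 of either organ. Col8a1 (-1.27, adjusted p = 0.00013) was on the other. For Col13a1 the interaction was -0.01 (SE 0.226, adjusted p = 0.987). Col4a2, Col4a3 and Col13a1 had too few epithelial counts to be tested in epithelium alone.

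**Figure D5:**
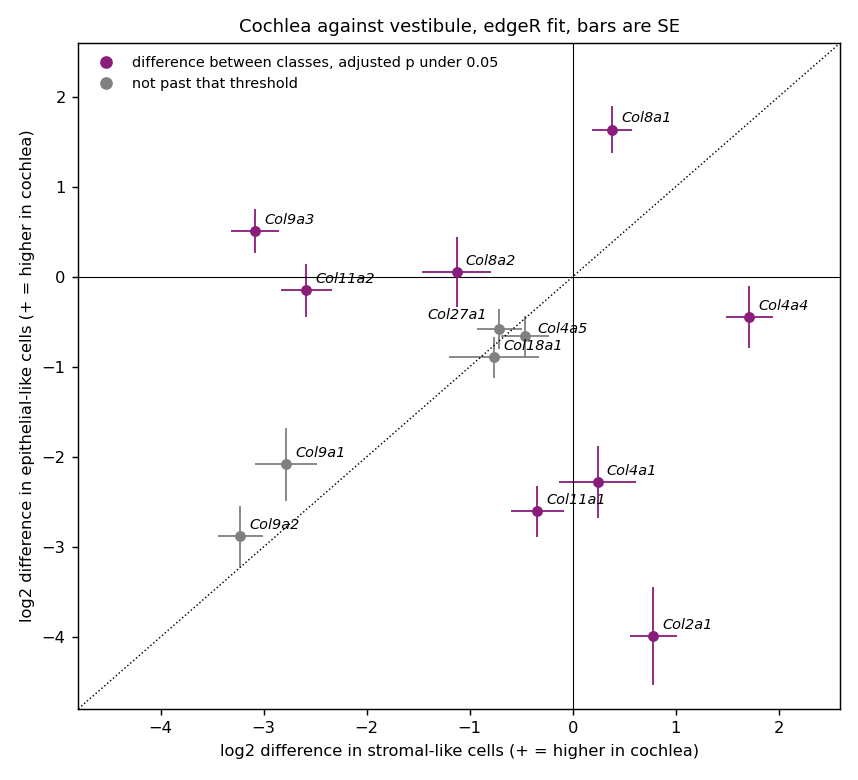
Organ difference (log2, cochlea minus vestibule) in stromal-like cells (x axis) against that in epithelial-like cells (y axis) for the chains tested in both; bars are SE, and purple points differ between the classes at an adjusted p below 0.05. Col9a2 and Col9a1 lie low on both axes, Col8a1 lies high on the epithelial axis, and Col2a1 and Col4a4 fall on opposite sides of 0 in the 2 classes.

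Genes that make, bind or break down collagen were read from 4 lists, with the same test and adjustment. In stroma 22 of 31 folding and processing genes were tested, and 3 were higher in the cochlea and 2 in the vestibule, where 17.9% of all genes were called (9.21% and 8.71% by direction). Plod2, a lysyl hydroxylase that prepares crosslinks, was 177.9 CPM ± 42.3 in cochlear and 23.3 ± 7.12 in vestibular stroma (log2 difference 2.65, adjusted p = 1.05e-06), and Lox, the crosslinking oxidase, 252.5 ± 153.9 and 43.96 ± 13.47 (2.23, 0.000154). Colgalt1 (0.65, adjusted p = 0.0236) was also higher in the cochlea, and Colgalt2 (-1.22, 0.000561) and Plod1 (-0.86, 0.00317) in the vestibule. Serpinh1, the collagen chaperone, did not pass (-0.31, 0.348).

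Of 9 fibril partners 8 were tested in stroma, with Tnxb (log2 difference 2.25, adjusted p = 6.48e-05) and Bgn (1.31, 0.000264) higher in the cochlea and Lum (-1.95, 0.000468) and Fmod (-1.49, 0.0106) in the vestibule. Lum and Fmod were also among the 16 stromal markers used to name clusters. How far that naming shaped their values was not tested. Beside the same 9.21% of all genes higher in the cochlea, 6 of 10 degradation genes were tested and 2 were higher there, Mmp2 (1.18, 0.000198) and Timp3 (0.97, 0.0249). Of 11 receptors 7 were tested and 2 were higher in the cochlea, Ddr2 (1.33, 4.26e-05) and Itga10 (1.32, 0.00375).

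In epithelium 18 folding and processing genes were tested, with 3 higher in the cochlea, Lox (3.95), Adamts2 (3.92) and Plod2 (0.69), and 8 in the vestibule, among them Plod1 (-3.14), Fkbp10 (-1.99), Pcolce (-1.72) and Serpinh1 (-1.62), against 23.9% of all genes called (10.8% and 13.2% by direction). Of 5 fibril partners tested, Lum (5.22) and Sparc were higher in the cochlea and Bgn (-2.34) and Ogn in the vestibule. Lox and Plod2 were higher in the cochlea in both classes and Plod1 in the vestibule, while Lum and Bgn were each higher in one organ in stroma and in the other in epithelium. For Lum this is a description only, since it was also a stromal marker in the naming of clusters. Of 4 degradation genes tested 2 were higher in the vestibule, Timp3 (-2.27) and Timp2 (-0.59), and of 4 receptors Cd44 (2.42) was higher in the cochlea and Adgrg6 (-4.63) in the vestibule. In HCs 14 folding genes were tested, 4 higher in the cochlea, among them Lox (5.29) and Plod2 (1.96), and 2 in the vestibule, P3h4 (-1.07) and Tll1, a procollagen protease at 0 in cochlear and 26.4 CPM ± 9.12 in vestibular HCs. Of all genes 36.0% were called in HCs (16.8% and 19.2% by direction). Of 3 partners tested 2 were higher in the cochlea, of 4 degradation genes 1 each way, and both of 2 receptors, Ddr1 (3.14) and Itgb1 (1.66), in the cochlea.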

How the data were processed

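Raw UMI counts per gene and cell were deposited by the authors, made with the 10x Chromium 3′ v3.1 kit and Cell Ranger (6.1.2 per the labels, 5.0.1 per the file headers of replicates 1 and 2) on mm10. Replicates 1 and 2 of each organ shared 1313 and 1633 barcodes, no other pair more than 41, and differed by less than the sampling noise, so replicate 1 stood for both and they were counted as 1 sample. Cells below 200 genes or 1000 UMIs, or with 25% or more of UMIs from mitochondria, were dropped, and the rest were clustered per organ without collagens (Seurat 5.3.0, 2000 variable genes, 30 components, resolution 1). A cluster was named when at least 3 markers of a list were enriched (a UMI in at least 25% of cells and a log2 fold of at least 1 over the organ's median cluster) and no second list competed. This rule was set after the clusters were seen. No doublet caller was run: a cluster with markers of 2 classes stayed unnamed, and an alternative left out cells with 3 or more markers of another class. V23 and V26 came almost wholly from vestibule replicate 3.

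UMIs were summed per library and class (at least 10 cells) and tested in R 4.3.3 with edgeR 4.0.16 (quasi-likelihood test, TMM, all genes, adjusted p under 0.05). DESeq2 1.42.0 was an alternative. The test filter kept 28 of the 44 chains in stroma, 14 in epithelium and 2 in HCs. Named with values are the 5 highest chains of a class, the 5 largest changes in each direction past the threshold, and the 6 type IV chains. Other chains were named after their values were seen. The 4 lists of related genes cover folding and processing, fibril partners, degradation and receptors. Members and lists were chosen with earlier results of these data known. Libraries with the same number correlated in stroma after group means were removed (0.172, 0.105, 0.195 and 0.177). A fit with the number as a block was therefore an alternative, and the stromal values given come from the fit without it. With the block 2201 of 10373 genes were called in stroma, and without it 1858. Gene positions are from GENCODE M21 and start windows from RefSeq. Shares of cells carry exact binomial and pooled levels exact Poisson 95% intervals.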

Additional observations from a re-analysis of the deposited data

Results flagged for a closer look

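Of 112 groups of 4 libraries, 10 had 1 library far from the other 3. The rule's rate of about 1 in 20 is meant for normally spread values. A sparse chain passes the rule whenever 1 library alone holds its UMIs, so the 10 cannot be set against that rate. In stroma these were Col4a6 in cochlea replicate 1 (10.1 CPM, others 0.575 to 1.84) and Col4a3 in vestibule replicate 1 (8.22 CPM, others 1.49 to 2.09). In epithelium vestibule replicate 1 stood above the others for Col9a2 (161 CPM, others 80.3 to 86.6), Col11a2 (146 CPM, others 46.3 to 61.2) and Col2a1 (22.3 CPM, others 8.81 to 10.7), and cochlea replicate 3 held the only Col14a1 UMI (0.231 CPM). In HCs cochlea replicate 3 held the only Col4a4 (2.22 CPM). In macrophages vestibule replicate 1, with 11 cells, stood apart for Col9a2 (85.4 CPM, others 11.3 to 19.5), Col8a1 (106.8 CPM, others 2.49 to 7.53) and Col11a2 (42.7 CPM, others 3.77 to 7.29).

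The organ difference differed between stroma and epithelium for 16 of 29 chains, against 27.3% of all genes (edgeR interaction, log2, positive where the difference lay more toward the cochlea in stroma). It was positive for Col25a1 (5.74), Col14a1 (6.12), Col2a1 (4.71), Col5a1 (3.40), Col16a1 (2.72), Col1a2 (2.70), Col4a1 (2.63), Col11a1 (2.12), Col23a1 (2.09), Col4a4 (1.99), Col4a3 (1.99) and Col4a2 (1.95). It was negative for Col9a3 (-3.52), Col11a2 (-2.54), Col8a2 (-1.28) and Col8a1 (-1.27). Among the positive ones, Col25a1, Col5a1, Col16a1, Col1a2, Col23a1, Col4a3 and Col4a2 had too few epithelial counts to be tested in epithelium alone. Without cochlea replicate 3 the value for Col14a1 was 1.96 with an adjusted p of 1. The call was also lost for Col1a2 without vestibule replicate 3 (adjusted p 0.0644), for Col23a1 without cochlea replicate 4 or vestibule replicate 3 or 4 (0.0544 to 0.41), and for Col8a2 without any library but cochlea 3 and vestibule 5 (0.0606 to 0.139).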

How the results depend on the processing

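Of the chains called, 10 of 15 in stroma, 7 of 9 in epithelium, 1 of 1 in HCs and 9 of 16 in the interaction kept their call in every alternative that tested them. Single libraries moved the counts: stromal chains higher in the cochlea ranged from 5 to 8, with 5 without vestibule replicate 3, and in the vestibule from 5 to 7, epithelial chains from 1 to 2 (2 without vestibule replicate 1) and from 6 to 9, HC chains from 0 to 0 and from 1 to 2 (2 without cochlea replicate 3 or vestibule replicate 5), and interaction chains from 9 to 12 and from 3 to 4. Calls over all genes moved as well. Without vestibule replicate 3, 1449 of 10595 genes were called in stroma, 765 of them higher in the cochlea. Without vestibule replicate 1, 2263 of 10236 were called in epithelium, 994 of them higher in the cochlea. In HCs 2970 of 9215 were called without cochlea replicate 3 and 3044 of 9233 without vestibule replicate 5.

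The cause of the following changes was not tested. Averaged over cells in place of pooled UMIs, the collagen share of cochlear epithelium was 0.0557% and of cochlear stroma 0.1332%. With cells holding 3 or more markers of another class left out, the shares of cochlear and vestibular HCs were 0.00367% and 0.0109%, and 4 epithelial chains were higher in the vestibule of 10 tested. Over all genes 1797 of 8493 were called in that epithelial comparison, 828 of them higher in the cochlea. With clusters of mixed markers kept, the vestibular HC share was 0.0269% and 3 HC chains of 5 tested were higher in the vestibule. There 3019 of 9906 genes were called in HCs, 1290 of them higher in the cochlea. With no filter on low counts 2 HC chains of 34 tested were higher in the cochlea and 5 in the vestibule, where 4757 of 19130 genes were called, 2118 of them higher in the cochlea. Both HC chains tested were higher in the vestibule with DESeq2 and with both organs clustered together. Of all genes 3147 of 8932 and 3336 of 8844 were called with these 2 settings. Stromal Col4a1, not called, turned to -0.0312 with mixed clusters kept, and stromal Col4a2 to 0.10 with library sums and no factors and to 0.14 without cells holding other markers.

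With the replicate number as a block 2 epithelial chains were higher in the cochlea, and the block changed no stromal call. Of all genes 2865 of 9866 were called in epithelium with the block, 1354 of them higher in the cochlea. In epithelium (0.225, 0.153, 0.275 and 0.0598) and HCs (0.15, 0.036, 0.198 and 0.0685) not every pair passed 0.1, though each library correlated best with its own number. Without the library term the interactions of Col23a1, Col4a3 and Col8a2 no longer passed. Library sums without factors, the Epcam-bearing clusters added and clusters of 1 library left out were alternatives chosen after seeing the data. Depth limits the scarce chains, with 8 chains under 50 UMIs in all cells, and HCs, where 2 chains could be tested.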
